A study of Mus musculus with 8 samples.

Results

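The genes described here are 10 components of the G1 to S switch of the cell cycle in mouse embryonic stem cells. They are the D-type cyclins Ccnd1, Ccnd2 and Ccnd3, their kinase Cdk4, the E-type cyclins Ccne1 and Ccne2, the retinoblastoma family Rb1, Rbl1 and Rbl2, and the transcription factor E2f1. They were taken by name, and all 10 were found by gene ID among the 37310 genes that the 8 count tables share. All 10 passed the filter on low counts that left 14462 genes for testing in the J1 libraries. The study, a screen of RNA helicases by RNA interference, profiled poly-A RNA of embryonic stem cells depleted of eIF4A3, a helicase of the exon junction complex. Each of its 4 groups has 2 libraries. J1 cells, of strain 129S4/SvJae, carried either eIF4A3 KD with Ccnb1 OE (called labelled KD/Ccnb1 here), eIF4A3 KD with a control OE construct (labelled KD), or a control KD with a control OE construct (control). CCE cells, of strain 129/Sv, carried eIF4A3 KD (CCE KD), and no control of that line was analysed here. KD is knockdown and OE is overexpression, here of Ccnb1, whose product, cyclin B1, drives mitotic entry with Cdk1. Per the labels, all cells were kept without feeders in serum and leukemia inhibitory factor and were first transfected and drug-selected. Lentivirus was then added, puromycin at 1 µg/mL was applied for 2.5 days, and cells were taken on day 4.5 of infection.

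D-type cyclins bind Cdk4 or Cdk6, and these kinases phosphorylate the retinoblastoma proteins pRB (Rb1), p107 (Rbl1) and p130 (Rbl2). In their less phosphorylated form these proteins bind E2F transcription factors and restrain the genes of DNA replication, and cyclin E with Cdk2 adds further phosphorylation at entry into S phase. Mouse embryonic stem cells are known for a short G1 phase, in which the retinoblastoma proteins are largely phosphorylated.

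Levels are CPM, which are read counts scaled to the gene counts of a library, and comparisons rest on the quasi-likelihood F test of edgeR over the 6 J1 libraries, with p-values adjusted over all genes tested and called under 0.05. The labelled KD/Ccnb1 libraries held 5871830 and 6620504 gene counts, the labelled KD libraries 4398141 and 3596615, the control libraries 5740965 and 8340023 and the CCE KD libraries 23966825 and 25574740. The labelled KD libraries stood apart. Reads that did not align made up 40.8% and 45.2% there and no more than 15.9% elsewhere in J1, and the spread between both libraries was 22.0 times Poisson noise, against 1.88 times in labelled KD/Ccnb1 and 3.41 times in control. Eif4a3, the targeted gene, stood at 47.3 and 53.5 CPM in labelled KD/Ccnb1, 75.7 and 37.5 CPM in labelled KD, 73.5 and 83.7 CPM in control, and in CCE KD at 48.8 and 53.9 CPM. Replicate 1 of labelled KD was therefore at the control level, and the log2 fold change of labelled KD over control was -0.63 (SE 0.33, edgeR adjusted p = 0.211). Ccnb1 itself stood at 136 and 131 CPM in labelled KD/Ccnb1, 101 and 126 CPM in labelled KD and 135 and 129 CPM in control, while the gene summed with its near-identical copies reached 437 and 447 CPM in labelled KD/Ccnb1, 126 and 156 CPM in labelled KD and 166 and 165 CPM in control. Markers of embryonic stem cells, 8 of 8 detected in every library, summed to 7540 and 7540 CPM in labelled KD/Ccnb1, 3933 and 3629 CPM in labelled KD and 8122 and 8093 CPM in control. In labelled KD/Ccnb1 over control, edgeR called 3 of the 8 higher (Nanog, Esrrb and Zfp42) and 2 lower (Pou5f1 and Utf1). Of all genes tested, 9.35% were called higher and 10.5% lower there, so the near-equal sums do not mean equal markers. Fibroblast markers summed to at most 36.7 CPM in any J1 library, where 4 or 5 of the 8 had no count. Markers of primitive endoderm summed to 89.4 and 82.3 CPM in labelled KD/Ccnb1, 40.0 and 33.9 CPM in labelled KD and 6.97 and 11.6 CPM in control. The part of these differences in the results below was not tested. In bulk RNA, fewer cells of a type and less RNA per cell cannot be told apart. Whether replicates came from separate cultures is not stated, so p-values measure only the spread between these libraries, which may be technical. The fit gives each gene a single spread for all J1 groups, although labelled KD varied most. SE and p may thus be too small in comparisons with labelled KD and too large in labelled KD/Ccnb1 over control. With only both groups fitted, changed genes went from 4184 to 1760 in labelled KD over control. They went from 5616 to 3994 in labelled KD/Ccnb1 over labelled KD and from 2865 to 8658 over control.

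The comparison of labelled KD with control asks what changed under the eIF4A3 KD label. Among the members called, those that push G1 forward and those that hold it back moved in opposite directions. All 3 D-type cyclins, their kinase Cdk4 and the E-type cyclin Ccne1 fell, and the retinoblastoma genes Rb1 and Rbl2 rose. Ccne2, Rbl1 and E2f1 did not pass the test. In all, 7 of 10 members were called, where 28.9% of all genes tested were. The 5 that fell stand beside 17.9% of all genes called lower, and the 2 that rose beside 11.0% called higher. The libraries of both groups did not overlap for 7 of 10 members, where 62.3% of all genes tested had no overlap. The median log2 fold change was -1.23 over the members and -0.09 over all genes tested. Of all calls, 38.0% were higher, and this share was 49.0% with scaling by total gene counts and 56.0% with a GC and length offset, which moved the median of all genes by 0.256. Neither scaling turned or ended any of the 7 calls.

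**Figure D1:**
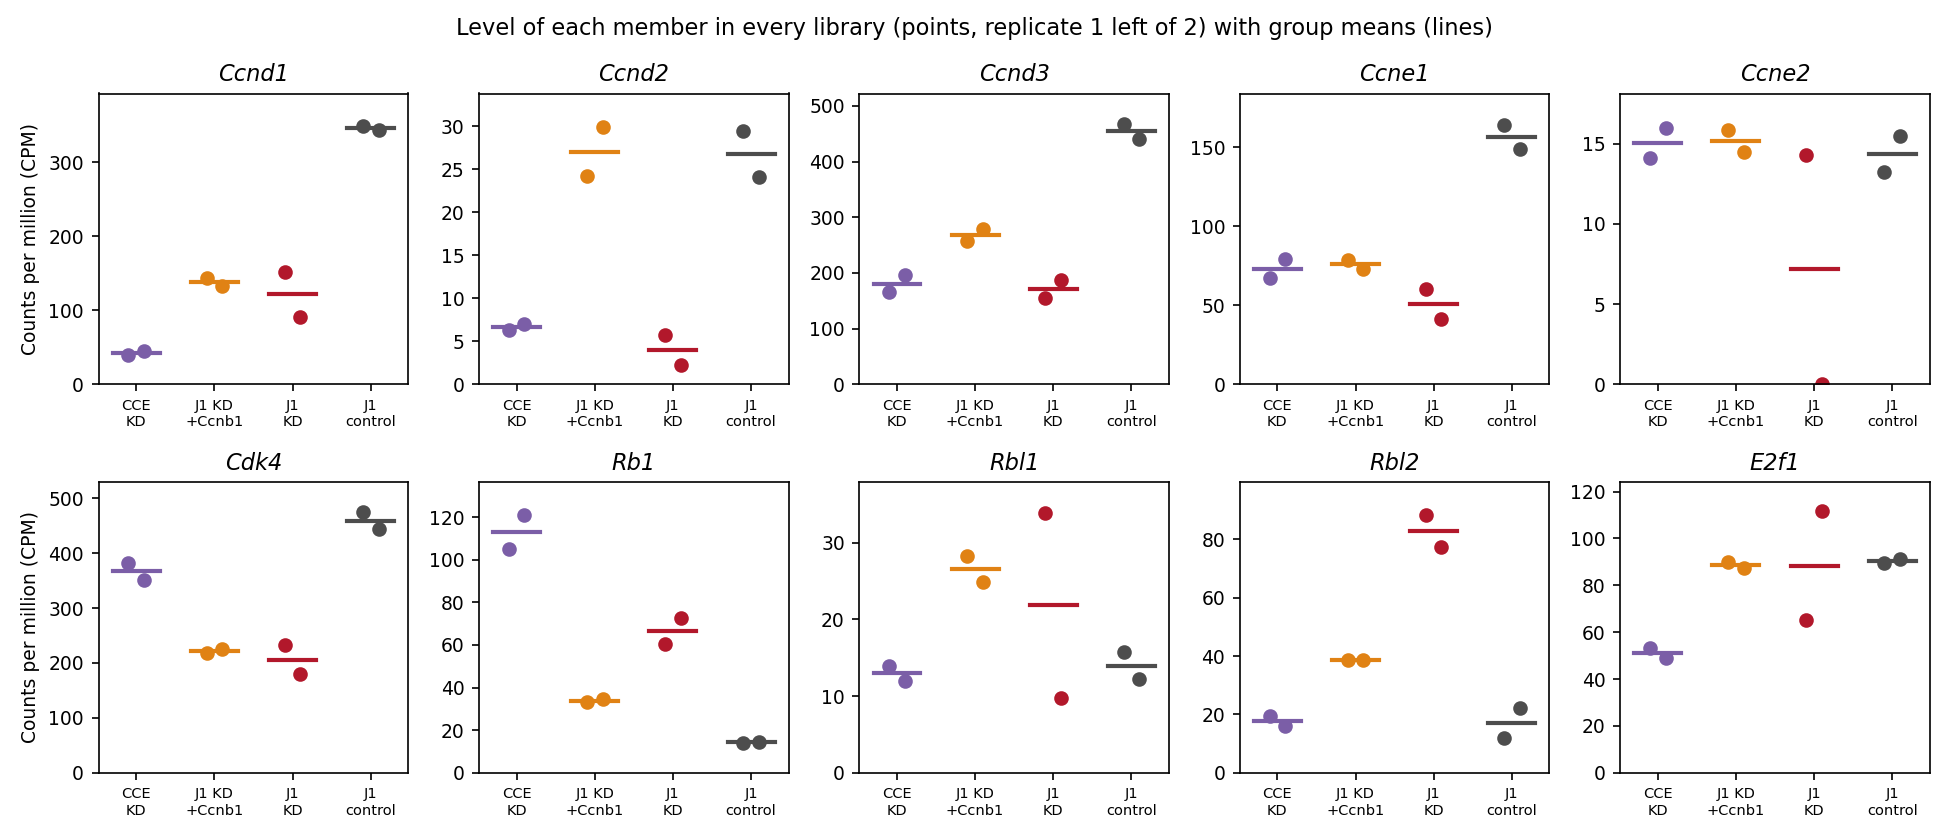
Levels of the 10 genes in CPM (linear axes from 0, with a scale per gene) in each of the 8 libraries, with 1 point per library and a line at the group mean, groups from left to right CCE KD, J1 KD with Ccnb1, J1 KD and J1 control. The control libraries stand above the other J1 libraries for Ccnd1, Ccnd3, Ccne1 and Cdk4 and below them for Rb1, and Ccne2 has no count in J1 KD replicate 2.

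Ccnd1, the D-type cyclin that mitogen signals induce in many cell types, stood at 152 and 91.5 CPM in labelled KD and 349 and 343 CPM in control. Both labelled KD libraries were below both control libraries, though they differed from each other. Its log2 fold change was -1.66 (SE 0.22, edgeR adjusted p = 0.00541). Leaving out either control library ended this call (edgeR adjusted p = 0.0678 and 0.0675).

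Ccnd2, the scarcest of the D-type cyclins here, had 5.68 and 2.22 CPM in labelled KD, which are 25 and 8 reads, and 29.4 and 24.1 CPM in control. The groups were far apart, but the labelled KD values come to the equivalent of 1.5 molecules at the mean spread of that group. That mean was taken over genes with more than 60 and up to 2000 summed counts. Ccnd2, with 33, lies below that range, so the 1.5 is an extrapolation. The log2 fold change was -2.89 (SE 0.48, edgeR adjusted p = 0.0104). The call was lost without either control library (edgeR adjusted p = 0.0975 and 0.0846), with only both groups in the fit (edgeR adjusted p = 0.0507) and in limma voom (adjusted p = 0.125).

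Ccnd3, the most abundant D-type cyclin by reads in the J1 libraries, had 155 and 188 CPM in labelled KD and 468 and 441 CPM in control. Each labelled KD library was below each control library, and the log2 fold change was -1.56 (SE 0.12, edgeR adjusted p = 0.000912). A processed pseudogene, Ccnd3-ps, matches Ccnd3 at 96.3% identity over 881 bases and can share its reads. It took 17.1% and 6.90% of the counts of gene and copy together in labelled KD and 16.5% and 17.2% in control. Summed with this copy, Ccnd3 had 187 and 202 CPM in labelled KD and 560 and 532 CPM in control, a log2 fold change of -1.64 that was also called by edgeR.

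Cdk4, the kinase that the D-type cyclins activate, stood at 233 and 179 CPM in labelled KD and 476 and 444 CPM in control. Control was higher in both libraries, with a log2 fold change of -1.31 for labelled KD (SE 0.13, edgeR adjusted p = 0.00201). Ccnd3 and Cdk4 were called in all 17 alternative analyses, as were Rb1 and Rbl2.

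The stretch before the start of Cdk4 is shown because it holds more copies of the E-box CACGTG, a sequence that MYC family proteins can bind, than nearly any other promoter. It covers the 250 bases before the start, at chr10:127063285-127063534 on the plus strand of GRCm38.p6, from RefSeq, and capitals mark the 4 matches.
Cdk4: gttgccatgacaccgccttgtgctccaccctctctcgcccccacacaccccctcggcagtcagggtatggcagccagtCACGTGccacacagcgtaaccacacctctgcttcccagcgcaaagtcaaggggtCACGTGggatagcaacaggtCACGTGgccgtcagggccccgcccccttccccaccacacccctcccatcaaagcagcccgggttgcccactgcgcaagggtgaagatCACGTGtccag
RefSeq promoters were matched for 6 of the 10 members, with 7 starts in all, since Ccnd3 has 2. CACGTG, which reads the same on both strands, was found in the 250 bases before 1 of these 7 starts, that of Cdk4, and before 1978 of 32851 starts of all genes (6.02%). Only 7 of the 32851 (0.0213%) hold 4 or more. A match is a description of these letters and says nothing of binding in these cells.

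Of the E-type cyclins, which activate Cdk2, Ccne1 was the abundant one. It had 60.03 and 41.1 CPM in labelled KD and 164 and 149 CPM in control, so that each labelled KD library was below each control library. Its log2 fold change was -1.78 (SE 0.19, edgeR adjusted p = 0.00282), and without control replicate 1 the edgeR adjusted p was 0.0506. Ccne2 had 14.3 CPM (63 reads) and 0 CPM (0 reads) in labelled KD and 13.2 and 15.5 CPM in control. One labelled KD library was thus within the control range, and the 0 of the other allows up to 0.834 CPM at a limit of 3 counts, which covers counting error only. The log2 fold change was -1.15 with an SE of 1.39 (edgeR adjusted p = 0.595). Without labelled KD replicate 1 it was -9.49 (edgeR adjusted p = 7.05e-14), a fitted value against a library at 0 that is no measure of size. In fits without 1 labelled KD library, the library left is assumed to vary like the other groups, which makes the p too small.

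Of the retinoblastoma family, Rb1 and Rbl2 rose and Rbl1 did not pass the test. Rb1, which encodes pRB, stood at 60.3 and 72.6 CPM in labelled KD and 14.1 and 14.5 CPM in control. The control libraries were close to each other and far below both labelled KD libraries, with a log2 fold change of 2.06 (SE 0.21, edgeR adjusted p = 0.0023). Rbl2, which encodes p130, the family member most abundant in resting cells, had 88.4 and 77.3 CPM in labelled KD and 12.02 and 22.1 CPM in control. Its log2 fold change was 2.11 (SE 0.31, edgeR adjusted p = 0.00733).

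Rbl1 encodes p107, whose own gene is a known E2F target. It had 33.9 and 9.73 CPM in labelled KD and 15.7 and 12.2 CPM in control, so that the labelled KD libraries fell on either side of both control libraries. The log2 fold change was 0.49 (SE 0.58, edgeR adjusted p = 0.581). It was -0.68 (edgeR adjusted p = 0.0577) without labelled KD replicate 1 and 1.11 (edgeR adjusted p = 3.01e-05) if replicate 2 was left out.

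The 100 bases shown for Rbl1 were chosen because they hold the only matches to the E2F motif TTTNNCGC before any of the 7 member starts. They lie at chr2:157204535-157204634 on the minus strand of GRCm38.p6, from RefSeq, run up to the base before the start, and have both matches in capitals.
Rbl1: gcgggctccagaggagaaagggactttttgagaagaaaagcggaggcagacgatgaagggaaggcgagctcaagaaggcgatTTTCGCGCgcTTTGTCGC
TTTNNCGC was searched on both strands of the 250 bases before each start and was found before 1406 of the 32851 starts of all genes (4.28%). It was absent from these 250 bases of E2f1, Ccne1, Rbl2, Cdk4 and Ccnd3, which says nothing of E2F at those genes.

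E2f1, an activator E2F that the retinoblastoma protein restrains, had 65.0 and 112 CPM in labelled KD and 89.7 and 91.2 CPM in control. The labelled KD libraries bracketed the control libraries, and the log2 fold change was -0.19 (SE 0.26, edgeR adjusted p = 0.636). It was 0.13 (edgeR adjusted p = 0.368) without labelled KD replicate 1 and -0.66 (edgeR adjusted p = 9.56e-06) if replicate 2 was left out.

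**Figure D2:**
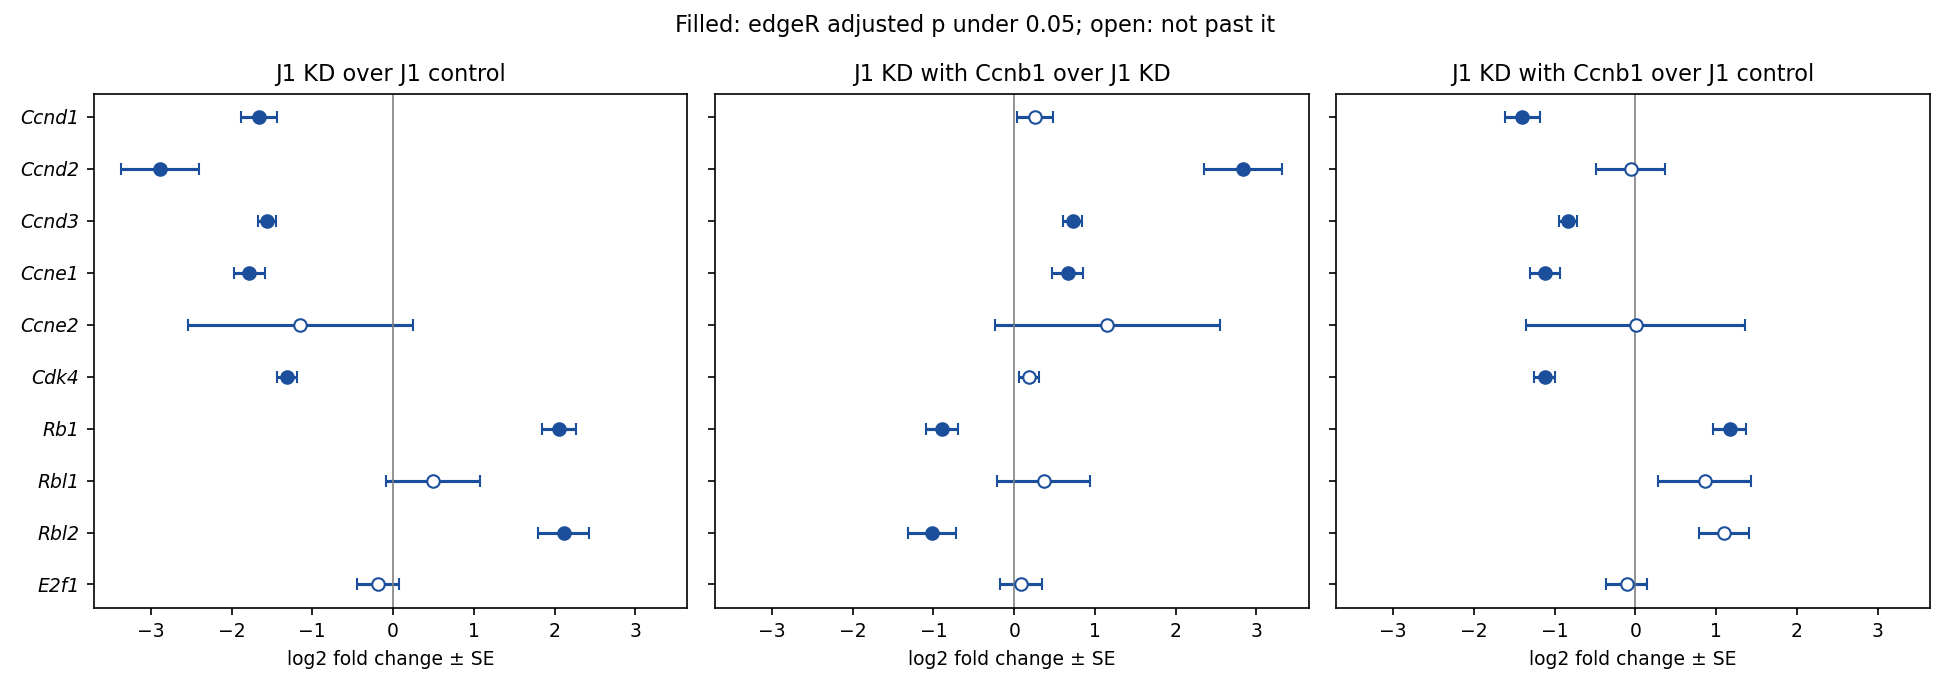
Log2 fold changes of the 10 genes from edgeR with bars of 1 SE, in the comparisons J1 KD over J1 control, J1 KD with Ccnb1 over J1 KD and J1 KD with Ccnb1 over J1 control, filled where edgeR called the gene. Ccnd2 moves by -2.89 in the first and by 2.83 in the second, while Ccnd1 and Cdk4 move by -1.66 and -1.31 in the first and by 0.26 and 0.19 in the second.

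By label, the groups labelled KD/Ccnb1 and labelled KD differ in the Ccnb1 construct. They also differ in unaligned reads, in spread and in how far their Eif4a3 levels agree, as given above, and these cannot be told apart here. Ccnd2, Ccnd3 and Ccne1 rose, Rb1 and Rbl2 fell, and Ccnd1, Cdk4, Ccne2, Rbl1 and E2f1 did not pass the test. This comparison shares the labelled KD libraries with the one before it, so opposite signs in both are partly built in. In all, 5 of 10 members were called, where 38.8% of all genes tested were. The 3 that rose stand beside 22.8% of all genes called higher, and the 2 that fell beside 16.0% called lower. Libraries did not overlap for 6 of 10 members, where 70.5% of all genes had no overlap. The median was 0.31 over the members and 0.14 over all genes tested, and 58.7% of all calls were higher, or 35.2% with the GC and length offset.

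Ccnd2 had 24.2 and 29.9 CPM in labelled KD/Ccnb1 and 5.68 and 2.22 CPM in labelled KD. Both labelled KD/Ccnb1 libraries were far above both labelled KD libraries, and the log2 fold change was 2.83 (SE 0.48, edgeR adjusted p = 0.00801). The call was lost without either labelled KD/Ccnb1 library (edgeR adjusted p = 0.0529 and 0.0712) and in limma voom (adjusted p = 0.0997).

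Ccnd3 had 257 and 279 CPM in labelled KD/Ccnb1 and 155 and 188 CPM in labelled KD, with a log2 fold change of 0.72 (SE 0.11, edgeR adjusted p = 0.00627). Its pseudogene took 29.8% and 27.8% of the counts of gene and copy in labelled KD/Ccnb1 and 17.1% and 6.90% in labelled KD, and with the copy added the log2 fold change was 1.03. Only the fit without labelled KD/Ccnb1 replicate 2 ended the call (edgeR adjusted p = 0.0556). Ccne1 had 78.9 and 73.3 CPM in labelled KD/Ccnb1 and 60.03 and 41.1 CPM in labelled KD, a log2 fold change of 0.66 (SE 0.19, edgeR adjusted p = 0.0404) that was called in 7 of 17 alternative analyses.

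Ccnd1 and Cdk4 showed no detectable change. Ccnd1 had 143 and 133 CPM in labelled KD/Ccnb1 and 152 and 91.5 CPM in labelled KD, with a log2 fold change of 0.26 (SE 0.22, edgeR adjusted p = 0.412). Cdk4 had 219 and 225 CPM in labelled KD/Ccnb1 and 233 and 179 CPM in labelled KD, with a log2 fold change of 0.19 (SE 0.13, edgeR adjusted p = 0.298). For both genes the labelled KD libraries lay on either side of the labelled KD/Ccnb1 libraries. Without labelled KD replicate 1 both were called, at 0.71 for Ccnd1 (edgeR adjusted p = 9.68e-11) and 0.43 for Cdk4 (edgeR adjusted p = 3.78e-07), and with the GC and length offset Ccnd1 turned to -0.15 (edgeR adjusted p = 0.688).

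Rb1 had 33.4 and 34.4 CPM in labelled KD/Ccnb1 and 60.3 and 72.6 CPM in labelled KD, with a log2 fold change of -0.89 (SE 0.20, edgeR adjusted p = 0.0187). The labelled KD/Ccnb1 libraries lay between those of labelled KD and control. Leaving out any labelled KD/Ccnb1 or control library ended the call of Rb1 (edgeR adjusted p = 0.0723 to 0.198), and the GC and length offset moved its value to -1.89 (edgeR adjusted p = 0.00138). Rbl2 had 38.7 and 38.7 CPM in labelled KD/Ccnb1 and 88.4 and 77.3 CPM in labelled KD, with a log2 fold change of -1.02 (SE 0.30, edgeR adjusted p = 0.0434). It also stood between the other groups, and its call was lost without either labelled KD/Ccnb1 library (edgeR adjusted p = 0.253 and 0.25), while the offset moved its value to -1.75 (edgeR adjusted p = 0.00893).

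Ccne2, Rbl1 and E2f1 again turned on single labelled KD libraries. Ccne2 had 15.8 and 14.5 CPM in labelled KD/Ccnb1 and 14.3 and 0 CPM in labelled KD (log2 fold change 1.15, SE 1.39, edgeR adjusted p = 0.566). Rbl1 had 28.3 and 24.9 CPM in labelled KD/Ccnb1 and 33.9 and 9.73 CPM in labelled KD (log2 fold change 0.36, SE 0.57, edgeR adjusted p = 0.662). E2f1 had 89.8 and 87.5 CPM in labelled KD/Ccnb1 and 65.0 and 112 CPM in labelled KD (log2 fold change 0.08, SE 0.26, edgeR adjusted p = 0.829). Without labelled KD replicate 1, Rbl1 was at 1.57 (edgeR adjusted p = 3.51e-06), and without replicate 2, E2f1 was at 0.59 (edgeR adjusted p = 7.43e-05).

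The comparison of labelled KD/Ccnb1 with control shows where the members stood when the Ccnb1 construct was added to the knockdown. Ccnd1, Ccnd3, Ccne1 and Cdk4 were lower than in control, Rb1 was higher, and the other 5 members did not pass the test. In all, 5 of 10 members were called, where 19.8% of all genes tested were. The 4 called lower stand beside 10.5% of all genes, and the 1 called higher beside 9.35%. Libraries did not overlap for 7 of 10 members, where 79.0% of all genes had no overlap. The median was -0.08 over the members and 0.07 over all genes tested, and 47.2% of all calls were higher, or 25.6% with the GC and length offset. None of the 10 members was called by edgeR without any 1 of the labelled KD/Ccnb1 or control libraries, with 6 at an unadjusted p under 0.05 in each such fit, while on all libraries DESeq2 called 6 and limma voom 7.

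Ccnd1 had 143 and 133 CPM in labelled KD/Ccnb1 and 349 and 343 CPM in control, with a log2 fold change of -1.40 (SE 0.22, edgeR adjusted p = 0.0106). Cdk4 had 219 and 225 CPM in labelled KD/Ccnb1 and 476 and 444 CPM in control (-1.12, SE 0.12, edgeR adjusted p = 0.0038). Ccne1 had 78.9 and 73.3 CPM in labelled KD/Ccnb1 and 164 and 149 CPM in control (-1.12, SE 0.19, edgeR adjusted p = 0.0128). In these 3 genes, replicates of a group lay close together and the groups were well apart. Ccnd3 had 257 and 279 CPM in labelled KD/Ccnb1 and 468 and 441 CPM in control (-0.84, SE 0.11, edgeR adjusted p = 0.0067), and -0.61 with its pseudogene added.

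Rb1 had 33.4 and 34.4 CPM in labelled KD/Ccnb1 and 14.1 and 14.5 CPM in control (log2 fold change 1.17, SE 0.20, edgeR adjusted p = 0.0147). The groups did not overlap, but with the GC and length offset the log2 fold change was 0.53 (edgeR adjusted p = 0.125). Rbl2 had 38.7 and 38.7 CPM in labelled KD/Ccnb1 and 12.02 and 22.1 CPM in control (1.09, SE 0.31, edgeR adjusted p = 0.0602), and was called by DESeq2 (adjusted p = 0.00183). Rbl1 had 28.3 and 24.9 CPM in labelled KD/Ccnb1 and 15.7 and 12.2 CPM in control, without overlap (0.86, SE 0.57, edgeR adjusted p = 0.366). The SE of Rbl1 rests on all J1 libraries, labelled KD included, and with only both groups in the fit Rbl1 and Rbl2 were called by edgeR, giving 7 called members. With the GC and length offset, edgeR called 0 members higher. Over the 17 alternative analyses the log2 fold change ranged from 0.58 to 1.63 for Rbl2 and from 0.25 to 1.06 for Rbl1.

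Ccnd2, Ccne2 and E2f1 were near the control level. Ccnd2 had 24.2 and 29.9 CPM in labelled KD/Ccnb1 and 29.4 and 24.1 CPM in control (log2 fold change -0.06, SE 0.43, edgeR adjusted p = 0.948). Ccne2 had 15.8 and 14.5 CPM in labelled KD/Ccnb1 and 13.2 and 15.5 CPM in control (0.00, SE 1.35, edgeR adjusted p = 1). E2f1 had 89.8 and 87.5 CPM in labelled KD/Ccnb1 and 89.7 and 91.2 CPM in control (-0.11, SE 0.26, edgeR adjusted p = 0.831). The groups overlapped for each of these 3 genes. The 3 D-type cyclins thus differed in their values across the comparisons that share these libraries, with Ccnd2 at -2.89, 2.83 and -0.06, Ccnd3 at -1.56, 0.72 and -0.84, and Ccnd1 at -1.66, 0.26 and -1.40.

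For a description across genes, levels were divided by exon length, in CPM per kilobase. This length counts every annotated exon base of a gene, 8.775 kb for Ccnd3, and not the length of the transcripts expressed. Sums, shares, ratios and orders between genes therefore depend on the annotation, and reads of Ccnd3-ps are left out of them. Summed over Ccnd1, Ccnd2 and Ccnd3, the D-type level was 62.3 and 63.2 in labelled KD/Ccnb1, 50.6 and 41.0 in labelled KD and 131 and 126 in control. The E-type level, of Ccne1 and Ccne2, was 34.2 and 31.7 in labelled KD/Ccnb1, 26.6 and 15.5 in labelled KD and 65.5 and 60.4 in control. The retinoblastoma level, of Rb1, Rbl1 and Rbl2, was 15.4 and 15.0 in labelled KD/Ccnb1, 27.4 and 23.9 in labelled KD and 6.55 and 7.37 in control. Cyclin sums were thus highest in control and retinoblastoma sums highest in labelled KD, with labelled KD/Ccnb1 between them in all 3 sums. The ratio of the D-type to the retinoblastoma level was 4.05 and 4.21 in labelled KD/Ccnb1, 1.85 and 1.72 in labelled KD and 19.9 and 17.0 in control. These groups do not overlap in this ratio, which describes RNA and not protein, and which was not tested.

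**Figure D3:**
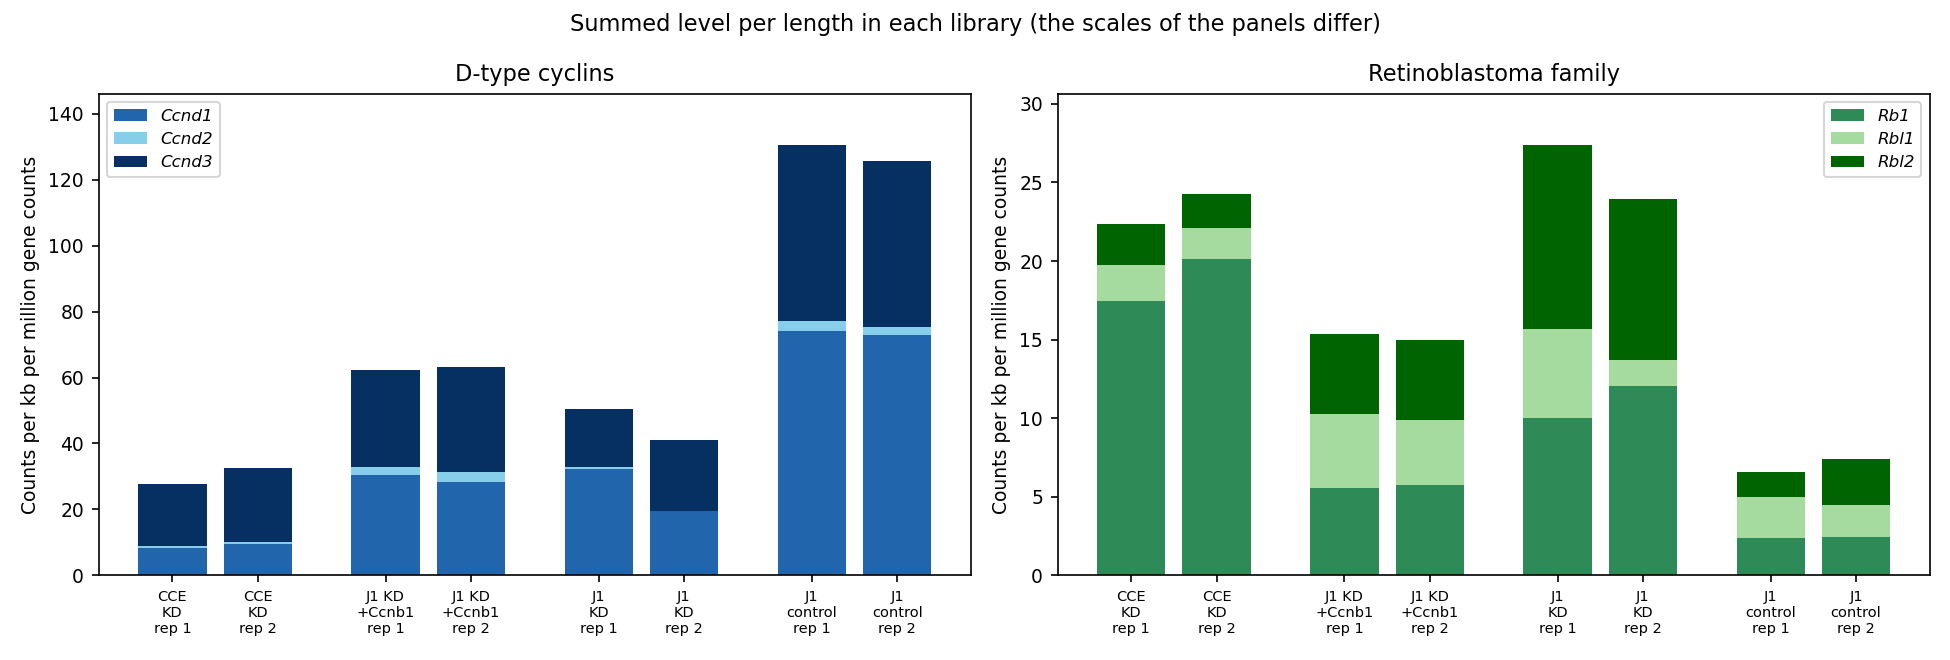
Levels of the D-type cyclins (left) and of the retinoblastoma family (right) in CPM per kilobase, stacked by gene with 1 bar per library, groups from left to right CCE KD, J1 KD with Ccnb1, J1 KD and J1 control, and with different scales in both panels. The J1 control bars are the tallest on the left, at 131 and 126, and the shortest on the right, at 6.55 and 7.37, and Rb1 makes up 78.0% and 82.9% of the CCE KD bars on the right.

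Within the families, the make-up differed between groups and libraries. Ccnd1 gave 48.9% and 44.6% of the D-type level in labelled KD/Ccnb1, 63.8% and 47.3% in labelled KD and 56.7% and 58.0% in control. Ccnd3 gave nearly all of the rest, and Ccnd2 at most 5.03% in any J1 library. Rb1 gave 36.1% and 38.2% of the retinoblastoma level in labelled KD/Ccnb1, 36.6% and 50.4% in labelled KD and 35.8% and 32.7% in control. Each of the 3 retinoblastoma genes gave between 20.7% and 50.4% of that level in the J1 libraries, apart from Rbl1 in labelled KD replicate 2, at 6.79%.

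The order of the members per length differed between groups, again without a test. In labelled KD/Ccnb1, Cdk4 (68.3) led, followed by Ccnd3 (30.5), Ccnd1 (29.3), Ccne1 (28.6) and E2f1 (28.1), whose neighbours overlapped, and then by Rb1 (5.64), Rbl2 (5.12), Rbl1 (4.44), Ccne2 (4.34) and Ccnd2 (2.87). In labelled KD, Cdk4 (63.5) led E2f1 (28.0), Ccnd1 (25.9), Ccnd3 (19.5) and Ccne1 (19.0), and Rb1 (11.0) and Rbl2 (11.0) came before Rbl1 (3.64), Ccne2 (2.05) and Ccnd2 (0.420), with overlap between neighbours except after Cdk4, Ccne1 and Rbl2. In control the order was Cdk4 (141), Ccnd1 (73.5), Ccne1 (58.8), Ccnd3 (51.8), E2f1 (28.7), Ccne2 (4.11), Ccnd2 (2.85), Rb1 (2.38), Rbl1 (2.33) and Rbl2 (2.25), where of adjacent genes only the 3 retinoblastoma genes at its end overlapped, and Rbl1 and Rbl2 also overlapped with Ccnd2. Cdk4 was thus first in every J1 group, and the 3 retinoblastoma genes had the lowest means in control, with Ccne2 and Ccnd2 in the last places in labelled KD/Ccnb1 and labelled KD.

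In CCE KD, a different line whose counts were made in another way, the members had another profile. The values are set side by side with the J1 groups without a test, since no CCE control was analysed here and reads were filed differently. Reads filed as not placed uniquely made up at least 9.71% in CCE and 0% in J1. Those filed under low alignment quality made up 0% in CCE and 20.6% to 33.7% in J1. Whether the latter include reads with more than 1 possible place is not given. Processed pseudogenes held at most 0.23% of gene counts in CCE and at least 7.2% in J1. Ccnd1 had 39.3 and 44.4 CPM, Ccnd2 6.34 and 6.96 CPM and Ccnd3 165 and 197 CPM. Ccnd1 was thus below every J1 library, while Ccnd3 overlapped with labelled KD, with its pseudogene at no more than 0.0506% of the shared counts. Ccnd3 gave 67.6% and 68.8% of the D-type level per length and Ccnd1 30.0% and 28.9%. Rb1 had 105 and 121 CPM, above every J1 library, and gave 78.0% and 82.9% of the retinoblastoma level, while Rbl1 had 13.9 and 12.004 CPM and Rbl2 19.6 and 16.1 CPM, both in or near the range of J1 control. The retinoblastoma level summed to 22.3 and 24.3 and the D-type level to 27.8 and 32.6. Cdk4 had 382 and 352 CPM, Ccne1 66.97 and 79.2 CPM, Ccne2 14.1 and 16.0 CPM and E2f1 53.4 and 49.2 CPM. E2f1 was below every J1 library and Cdk4 between labelled KD and control. Per length, the order was Cdk4 (113), Ccne1 (27.5), Ccnd3 (20.6), Rb1 (18.8), E2f1 (16.3), Ccnd1 (8.89), Ccne2 (4.31), Rbl2 (2.37), Rbl1 (2.16) and Ccnd2 (0.707), where Ccnd3 overlapped with Rb1 and Rbl2 with Rbl1.

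Several members share exon bases with a neighbouring gene on the other strand, and how the deposited counts treated strand is not given in the sources used here. By GENCODE M21, overlaps with genes that the count tables list cover 23.4% of the exon length of Ccnd1 (with LTO1), 19.7% of Cdk4 (with Tspan31), 17.4% of Ccne2 (with Ints8), 9.17% of Rbl2 (with Aktip), 8.11% and 6.78% of Rb1 (with Rcbtb2 and Lpar6) and 4.11% of Ccnd3 (with Bysl). Reads from these stretches may come from either gene, and some may have been set aside as ambiguous, at 0.328% to 0.594% of all reads per library. Further overlaps, with annotated genes not used here, cover 11.8% of Rbl2 and 3.95% and 3.91% of Ccnd2.

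The rest of the pathway was described by 7 gene lists, in labelled KD against control first. Among the S-phase genes that E2F is known to control, 16 of 23 fell and 2 rose, with a median log2 fold change of -0.91. Of all genes tested, 17.9% were called lower and 11.0% higher in this comparison, and each list count in this comparison stands beside these shares. Rrm2, which encodes a subunit of ribonucleotide reductase, had 96.4 and 80.6 CPM in labelled KD and 207 and 218 CPM in control (-1.42, SE 0.11, edgeR adjusted p = 0.00106). Ung, a uracil glycosylase gene, was at -0.92 (SE 0.10, edgeR adjusted p = 0.00263). Pole, which encodes the catalytic subunit of DNA polymerase epsilon, went the other way, with 380 and 327 CPM in labelled KD and 115 and 127 CPM in control (1.40, SE 0.11, edgeR adjusted p = 0.00107), and Mcm7 rose as well. The list thus held genes that moved each way. Of the 9 other E2F and DP genes 4 fell and 0 rose (median -0.55). These were the repressor E2f4 (-1.55, SE 0.11, edgeR adjusted p = 0.000835), the dimer partner Tfdp1 (-1.28, SE 0.12, edgeR adjusted p = 0.00171), the atypical repressor E2f8 (-2.87, SE 0.34, edgeR adjusted p = 0.00369) and E2f3.

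Of the 7 other G1 and S kinases and activators, 3 fell and 0 rose in labelled KD against control (median -1.10), and for these and the E2F and DP genes 0 were higher also at an unadjusted p under 0.05 in edgeR, by DESeq2 and by limma voom. Cdc25a, the phosphatase that activates Cdk2, had 43.7 and 50.0 CPM in labelled KD and 156 and 176 CPM in control (-1.99, SE 0.14, edgeR adjusted p = 0.000725), and Cdk2 (-1.33, SE 0.18, edgeR adjusted p = 0.00542) and Ccna2 (-1.20, SE 0.24, edgeR adjusted p = 0.0183) were the others. Of 6 CDK inhibitors, 1 rose and 1 fell (median -0.58, or -0.21 with Cdkn2c, which had no count in labelled KD, at its bound). Cdkn1a, which encodes p21 and is a known p53 target, had 197 and 169 CPM in labelled KD and 37.8 and 39.2 CPM in control (2.09, SE 0.13, edgeR adjusted p = 0.000649). Cdkn1c, which encodes p57, was at -1.64 (SE 0.46, edgeR adjusted p = 0.0454). Of 5 upstream genes, 1 rose and 4 fell (median -1.07). Mdm2, another p53 target, was at 1.61 (SE 0.07, edgeR adjusted p = 0.000293), Mycn at -1.71 (SE 0.13, edgeR adjusted p = 0.00104) and Trp53 at -0.66 (SE 0.07, edgeR adjusted p = 0.00272), and Myc and Gsk3b fell too. The inhibitor Cdkn1a thus rose with Rb1 and Rbl2, while Mycn and Myc fell with Ccnd1, Ccnd2, Ccnd3 and Ccne1, and markers of embryonic stem cells fell in the same libraries, 8 of 8 called.

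Of the 6 genes listed for MuvB and DREAM, 1 rose and 3 fell in labelled KD against control (median -0.64). DREAM is the complex in which p130 or p107 binds E2F and MuvB, and the product of Mybl2 binds MuvB outside DREAM. Lin37, whose reads can be split with a near-identical copy, was at 1.77 (SE 0.36, edgeR adjusted p = 0.0194) and at 1.11 with the copy added, Rbbp4 at -0.78 (SE 0.07, edgeR adjusted p = 0.00172) and Mybl2 at -0.49 (SE 0.06, edgeR adjusted p = 0.00369), and Lin9 fell. Of 8 genes of cyclin turnover, 3 rose and 4 fell (median -0.23). Ambra1, an adaptor for breakdown of D-type cyclins, was at 0.79 (SE 0.08, edgeR adjusted p = 0.00199), with Fbxw7 and Cul3 also higher. Cks1b (-1.89, SE 0.12, edgeR adjusted p = 0.000579) and Skp2 (-1.82, SE 0.21, edgeR adjusted p = 0.00348) act together in the breakdown of p27, and Rbx1 and Fzr1 were lower too. Of the genes given a value in these 3 paragraphs, Cdkn1c, Ccna2, Lin37, E2f8 and Cdk2 lost their calls without either control library and Mybl2 and Skp2 without replicate 2 of control (edgeR adjusted p = 0.0516 to 0.22). Cdkn1c, Ccna2 and Lin37 also lost theirs without either labelled KD/Ccnb1 library or with only both groups in the fit (edgeR adjusted p = 0.0522 to 0.125), Cdkn1c and Ccna2 with the GC and length offset (edgeR adjusted p = 0.0635 and 0.0701), and Cdkn1c with DESeq2 size factors or total counts (edgeR adjusted p = 0.0513 and 0.0575).

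**Figure D4:**
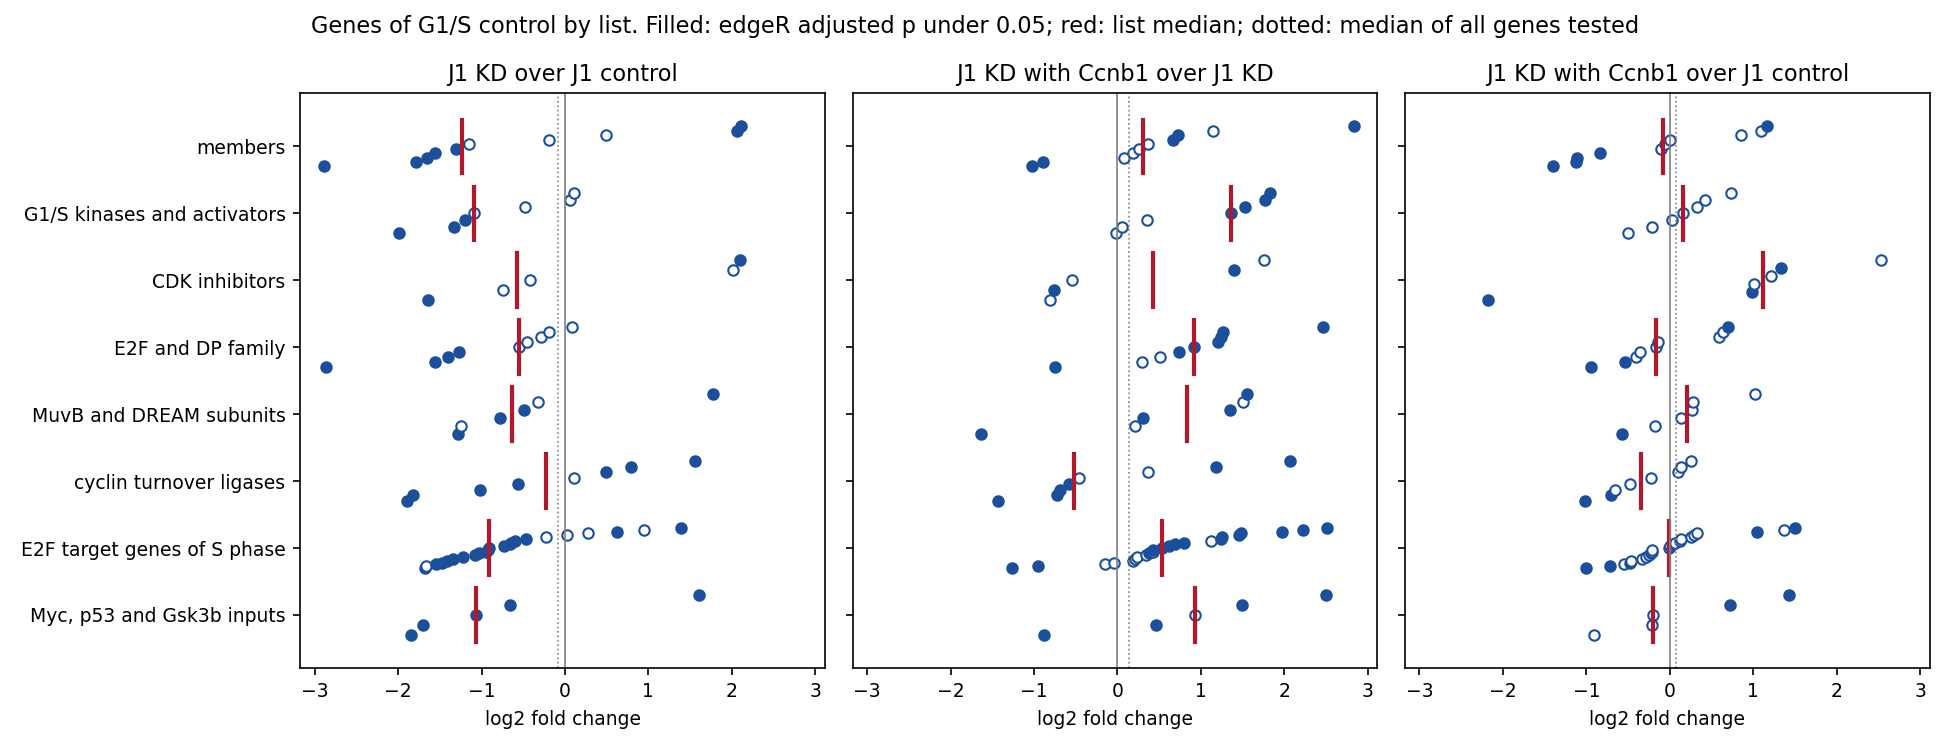
Log2 fold changes of the 10 members and of the genes of 7 pathway lists in the comparisons J1 KD over J1 control, J1 KD with Ccnb1 over J1 KD and J1 KD with Ccnb1 over J1 control, with 1 point per gene, filled where edgeR called it, a red line at the list median and a dotted line at the median of all genes tested. The red line of the S-phase targets is at -0.91, 0.53 and -0.01, and Cdkn2c is not drawn in the first 2 comparisons, where J1 KD has no count of it.

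In labelled KD/Ccnb1 against labelled KD, whose libraries the comparison above shares, 13 of the 23 S-phase targets rose and 2 fell (median 0.53). The list counts of this comparison stand beside 22.8% of all genes tested called higher and 16.0% called lower. Rrm2 had 224 and 237 CPM in labelled KD/Ccnb1 and 96.4 and 80.6 CPM in labelled KD (1.46, SE 0.11, edgeR adjusted p = 0.000596), while Pole was at -1.26 (SE 0.11, edgeR adjusted p = 0.000908) and Mcm7 fell. Pcna, whose counts are split with a near-identical copy, was at 2.23 (SE 0.16, edgeR adjusted p = 0.000525) and at 2.49 with its copy. Of the 9 E2F and DP genes 6 rose and 1, E2f2, fell (median 0.92), with E2f4 at 1.20 (SE 0.11, edgeR adjusted p = 0.00111), Tfdp2 at 1.25 (SE 0.16, edgeR adjusted p = 0.00312) and E2f8 at 2.46 (SE 0.34, edgeR adjusted p = 0.00395). Of the 7 kinases and activators 4 rose and 0 fell (median 1.36), with 0 lower also at an unadjusted p under 0.05 in edgeR, by DESeq2 and by limma voom. These were Cdc25a at 1.77 (SE 0.13, edgeR adjusted p = 0.000617), Cdk2 at 1.36 (SE 0.18, edgeR adjusted p = 0.00347), Ccna2 at 1.53 (SE 0.24, edgeR adjusted p = 0.00627) and Ccnh. More genes of these 3 lists thus rose than fell, beside markers of embryonic stem cells that also rose, 8 of 8 called.

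Among the CDK inhibitors in that comparison, Cdkn1a fell, with 96.6 and 108 CPM in labelled KD/Ccnb1 and 197 and 169 CPM in labelled KD (-0.76, SE 0.13, edgeR adjusted p = 0.0076). Cdkn1b, which encodes p27, had 67.3 and 70.4 CPM in labelled KD/Ccnb1 and 33.0 and 22.2 CPM in labelled KD (1.40, SE 0.25, edgeR adjusted p = 0.00947). Cdkn2c was called higher as well, but had no count in labelled KD and stayed under the limit of 3 molecule equivalents for that group in both groups, so no fold is given. The list's median was 0.43, and -0.27 with this gene at its bound. Of the 5 upstream genes 3 rose and 1 fell (median 0.94), with Mdm2 at -0.88 (SE 0.07, edgeR adjusted p = 0.000557), Mycn at 1.50 (SE 0.13, edgeR adjusted p = 0.000931), Gsk3b at 2.50 (SE 0.29, edgeR adjusted p = 0.00224) and Trp53 the other that rose. Of the 6 MuvB and DREAM genes 3 rose and 1 fell (median 0.83), with Mybl2 at 0.31 (SE 0.06, edgeR adjusted p = 0.0107), Lin9 at 1.55 (SE 0.31, edgeR adjusted p = 0.0131), Lin37 at -1.64 (SE 0.36, edgeR adjusted p = 0.0182; -0.88 with its copy) and Lin54 also higher. Of the 8 turnover genes 2 rose and 4 fell (median -0.52), with Cks1b at 1.19 (SE 0.11, edgeR adjusted p = 0.00125), Skp2 at 2.07 (SE 0.21, edgeR adjusted p = 0.00151), Ambra1 at -0.69 (SE 0.08, edgeR adjusted p = 0.0019), and Cul3, Fbxw7 and Cul1 also lower. With the GC and length offset, the calls of Cdkn1b, Lin9 and Tfdp2 were lost (edgeR adjusted p = 0.0745 to 0.237), and values that stayed called moved to 0.97 for Cdc25a, 0.75 for Cdk2, 0.86 for Ccna2, 0.53 for Cks1b, 1.21 for Skp2, 0.82 for Rrm2 and -1.62 for Mdm2. In limma voom, Lin9 was not called (adjusted p = 0.104). Without either labelled KD/Ccnb1 library those of Cdkn1a, Cdkn1b, Mybl2, Lin9 and Lin37 were lost, and without replicate 2 of it also those of Ambra1 and Ccna2 (edgeR adjusted p = 0.051 to 0.182).

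In labelled KD/Ccnb1 against control, the list counts stand beside 9.35% of all genes tested called higher and 10.5% called lower. Of the 7 kinases and activators edgeR called 0 (median 0.16), with 0 at an unadjusted p under 0.05 and 0 by DESeq2, while limma voom called 3 higher and 1 lower. Of the S-phase targets 2 rose and 3 fell (median -0.01). Pcna was at 1.50 (SE 0.15, edgeR adjusted p = 0.00311) and at 0.99 with its copy, and Mcm4 was also higher. Ung was at -0.72 (SE 0.10, edgeR adjusted p = 0.00665) and Mcm3 at -0.47 (SE 0.08, edgeR adjusted p = 0.0125), and Tk1 was also lower. Cdkn1a had 96.6 and 108 CPM in labelled KD/Ccnb1 and 37.8 and 39.2 CPM in control (1.33, SE 0.13, edgeR adjusted p = 0.00275), and the inhibitor list had 2 that rose and 1 that fell (median 1.11). The others were Cdkn1b (0.98, SE 0.24, edgeR adjusted p = 0.0426) and Cdkn1c (-2.18, SE 0.46, edgeR adjusted p = 0.0266). Mdm2 was at 0.72 (SE 0.07, edgeR adjusted p = 0.00227) and Gsk3b at 1.43 (SE 0.27, edgeR adjusted p = 0.0191), the 2 that rose of the 5 upstream genes, where edgeR called 0 lower (median -0.20), with 2 at an unadjusted p under 0.05, 2 by DESeq2 and 3 by limma voom.

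Of the E2F and DP genes in that comparison, 1 rose and 2 fell (median -0.16), with E2f2 at -0.95 (SE 0.16, edgeR adjusted p = 0.0147), Tfdp1 at -0.54 (SE 0.11, edgeR adjusted p = 0.0248) and Tfdp2 at 0.70 (SE 0.16, edgeR adjusted p = 0.0305), which was -0.04 with the GC and length offset. Of the MuvB and DREAM genes 0 rose by edgeR, with 1 at an unadjusted p under 0.05, 1 by DESeq2 and 1 by limma voom, and 1 fell, Rbbp4 (-0.58, SE 0.07, edgeR adjusted p = 0.00498), with a median of 0.20. Of the turnover genes 0 rose by edgeR, with 0 at an unadjusted p under 0.05, 0 by DESeq2 and 1 by limma voom, and 2 fell (median -0.35), with Fzr1 at -1.02 (SE 0.14, edgeR adjusted p = 0.0076) and Cks1b at -0.70 (SE 0.11, edgeR adjusted p = 0.0104). Every gene given a value in these 2 paragraphs except Cdkn1a and Mdm2 lost its call without any 1 of the labelled KD/Ccnb1 or control libraries (edgeR adjusted p = 0.0605 to 0.293). With the GC and length offset, Cdkn1b was at 0.53 (edgeR adjusted p = 0.26) and Gsk3b at 0.79 (edgeR adjusted p = 0.0869), both no longer called, while Mdm2 was at 0.34 and Rbbp4 at -1.22. The calls of Cdkn1a and Mdm2 were lost without either control library (edgeR adjusted p = 0.05 to 0.0616), and Cdkn1a also without labelled KD/Ccnb1 replicate 2 (edgeR adjusted p = 0.0548).

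The gene whose level followed each member most closely over the 6 J1 libraries was sought among the other members and the pathway lists, 73 genes in all, by the root mean square difference of centred log2 CPM. Ccnd1 and Ccne1 were nearest to each other (0.176), and Ccnd1 was also nearest to Cdk4 (0.197). Ccnd3 was nearest to Tk1 (0.176), the thymidine kinase gene. Rb1 (0.163) and Rbl2 (0.260) were both nearest to Cdkn1a, and E2f1 was nearest to Orc1 (0.156), which encodes a subunit of the origin recognition complex. Ccnd2 and Rbl1 had looser neighbours, Mcm4 (0.618) and Cdk7 (0.474). Ccne2 was nearest to Lin52 (0.282), with its second neighbour, Ccnd2, at 1.22. Both Ccne2 and Lin52 had no count in labelled KD replicate 2, and this match rests largely on that library. Each of the members Ccnd2, Ccne2 and Rbl1 had a labelled KD library far from the other.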

How the data were processed

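RNA of 8 libraries was sequenced after poly-A selection, per the labels. What the authors deposited are whole-number counts of reads for each Ensembl gene. Per the submitters' processing notes, the tools were HTSeq 0.11.2, Bowtie2 2.3.4.3, edgeR 3.26.8 and SAMtools 1.9, and the build mm9, with no roles given. Library sizes and tests leave out 5 summary rows that name no gene. Of all reads, these rows held 0% to 45.2% unaligned, 0% to 33.7% of low alignment quality and 11.9% to 49.5% outside genes. They filed at least 9.71% (CCE) or 0% (J1) as not placed uniquely, and the rest as ambiguous.

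In R 4.3.3, edgeR 4.0.16 (TMM, filterByExpr, quasi-likelihood F test, two-sided) was fitted to the 6 J1 libraries, with Benjamini-Hochberg adjustment over 14462 genes and calls under 0.05. The SE divides the size of the log2 fold change by the root of F. The procedure was tested on simulated data in which all libraries were given the same spread. That test therefore does not cover the unequal spread of the J1 groups. A molecule equivalent is a count over the spread of its group relative to Poisson noise, and a limit of 3 counts is 0.117 to 0.834 CPM. The spread is a mean over genes with more than 60 and up to 2000 counts summed over the group. Symbols, and length, GC content and overlaps from GENCODE M21, were joined by gene ID, since that annotation is of another build. Copies were found with BLAST 2.17.0 (90% identity, 300 bases). Alternatives were other scalings, no filter, DESeq2 1.42.0, limma 3.58.1 voom, a GC and length offset, copies added, counts divided by the spread, only the 2 groups compared, each library left out, and a replicate block. Replicate numbers did not pair libraries (correlations of deviations -0.030, 0.027 and -0.002).

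Members and lists were chosen with earlier results of these data known. Named genes were the members, the targeted genes, up to 3 called genes per list by adjusted p, and each member's nearest gene. Genes named with no value, where 5 or fewer were called, were chosen after their values were seen.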

Additional observations from a re-analysis of the deposited data

How the results depend on the processing

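The replicate numbers did not pair libraries, and the replicate block moved the number of changed genes in labelled KD over control to 2631, against 4184 without it (2344 with the block and the GC and length offset, and 1760 with only both groups in the fit). In labelled KD/Ccnb1 over control the number was 2865, and it was 4601 by DESeq2, 8590 by voom, 8377 with counts divided by the spread, 8658 with only both groups, and 1610 with the block and the offset. With 1 library left out, it ranged from 701 to 10225 in labelled KD over control, from 1674 to 11078 (against 5616) in labelled KD/Ccnb1 over labelled KD and from 254 to 8806 in labelled KD/Ccnb1 over control, highest without a labelled KD library. Members called then ranged from 4 to 9, from 0 to 9 and from 0 to 7, against 7, 5 and 5, and voom called 3 in labelled KD/Ccnb1 over labelled KD. The replicate block ended 1 call of a member, Rbl2 in labelled KD/Ccnb1 over labelled KD (edgeR adjusted p = 0.0693). Direction turned only in log2 fold changes that edgeR had not called, and in Tfdp2. In labelled KD over control these were Ccnb1 (0.039 with the offset, 0.038 with block and offset) and, with 1 library left out, Rbl1 (-0.68 to 1.11) and E2f1 (-0.66 to 0.13). In labelled KD/Ccnb1 over labelled KD, with the offset and then with block and offset, these were Ccnd1 (-0.15, -0.11), Rbl1 (-0.65, -0.45) and Ccnb1 (-0.48, -0.48). With 1 library left out, these were Rbl1 (-0.21 to 1.57), E2f1 (-0.21 to 0.59) and Eif4a3 (-0.44 to 0.55). In labelled KD/Ccnb1 over control these were Ccnd2 (0.016 with total counts, -0.20 to 0.11 with 1 library left out), Ccne2 (-0.014 by voom, -0.065 with the block, -0.51 with the offset, -0.58 with both, -0.056 with only both groups, -0.003 with counts divided by the spread, -0.089 to 0.146 with 1 library left out), E2f1 (0.22 with the offset, 0.22 with block and offset), Ccnb1 (0.015 with total counts, 1.34 with copies) and Tfdp2 (-0.044 with the offset, -0.046 with block and offset). The cause was not tested. Of the members, Ccnd2, Ccne2 and Rbl1 had the fewest counts in labelled KD, 33, 63 and 184 summed over both libraries. These are 1.5, 2.9 and 8.4 molecule equivalents, which rest on the spread between those libraries and not on depth alone.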
